A study of Mus musculus with 17 samples.

Results

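Expression of 9 genes, of the CCN family or targets of the co-activator YAP, was followed in mouse pancreatic stellate cells, the fibroblast precursors of the pancreas. The genes were taken by name from 35896 gene IDs, with no threshold on their values but with earlier results of these data known. They were 5 genes of the CCN family (Ccn1, Ccn2, Ccn3, Ccn4 and Ccn5) and 4 YAP target genes outside it (Ankrd1, Amotl2, Ajuba and Lats2). RNA was sequenced from 17 libraries of the lines PSC4 and PSC5, wild type, strain C57BL/6J, embedded in Matrigel and collected at day 4. There were 4 groups: 5 libraries in control medium, 4 in control medium with 20 ng/mL of TGF-beta, 4 in conditioned medium from organoids of pancreatic tumours (CM), and 4 in CM with 300 nM of neratinib, which blocks the kinases of the ERBB receptors. The series design regards the TGF-beta state as myofibroblast-like and the control state as quiescent. The PSC4 libraries were at passages 23, 24 and 25 (numbers 1, 2 and 3) and the PSC5 libraries at passages 27 and 28 (numbers 1 and 2). Control medium covered all 5 of these, TGF-beta lacked PSC4 number 1, and both CM groups lacked PSC4 number 3. The conditioned media carried the code T8 with number 1 and T6 with number 2, and the labels do not say what the codes stand for. Neratinib in control medium is not analysed here.

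YAP and TAZ are transcriptional co-activators that bind DNA through the TEAD factors. The Hippo kinases, among them LATS1 and LATS2, phosphorylate them and hold them out of the nucleus, while a stiff matrix, spreading and actin tension favour their entry. CCN proteins are secreted into the matrix, where they bind integrins and other receptors, and CCN2 (also known as CTGF) is best known for its part in fibrosis and in activated stellate cells.

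The TEAD recognition sequence GGAATG, or its reverse complement CATTCC, was looked for on both strands in the 250 bases upstream of the RefSeq start sites (GRCm38.p6). An entry was found for 5 of the 9 genes, with 6 windows. The sequences that hold a match are shown 5′ to 3′ on the strand of the gene, with the matches in capitals, beside genes of which Amotl2 fell with TGF-beta and the other 3 were not called in that comparison.
Ccn1: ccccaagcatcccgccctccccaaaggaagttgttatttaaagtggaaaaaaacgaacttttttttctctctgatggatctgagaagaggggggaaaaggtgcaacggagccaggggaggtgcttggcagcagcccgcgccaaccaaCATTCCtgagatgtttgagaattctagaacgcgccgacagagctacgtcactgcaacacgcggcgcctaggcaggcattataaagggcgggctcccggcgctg
Ankrd1: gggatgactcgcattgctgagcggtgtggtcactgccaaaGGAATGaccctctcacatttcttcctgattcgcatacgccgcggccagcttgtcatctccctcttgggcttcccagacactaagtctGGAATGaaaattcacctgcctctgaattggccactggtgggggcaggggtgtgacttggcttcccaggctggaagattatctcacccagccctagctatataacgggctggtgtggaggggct
Amotl2: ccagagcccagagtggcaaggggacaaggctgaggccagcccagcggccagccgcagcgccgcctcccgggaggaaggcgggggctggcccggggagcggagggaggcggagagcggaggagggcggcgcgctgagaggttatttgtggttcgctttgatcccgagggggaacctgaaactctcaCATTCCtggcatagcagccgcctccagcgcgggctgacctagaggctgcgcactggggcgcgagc
Ajuba: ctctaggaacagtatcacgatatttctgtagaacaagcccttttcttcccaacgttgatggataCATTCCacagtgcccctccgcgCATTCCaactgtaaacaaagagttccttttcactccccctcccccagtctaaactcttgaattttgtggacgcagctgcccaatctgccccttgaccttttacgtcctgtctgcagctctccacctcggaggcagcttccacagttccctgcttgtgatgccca
The Ccn1 window lies at chr3:145649986-145650235 on the minus strand and holds 1 match, which begins at position -103 from the start site. The Ankrd1 window, chr19:36119845-36120094 on the minus strand, holds 2 matches, at -210 and -123. The Amotl2 window, chr9:102717554-102717803 on the plus strand, holds 1 match at -65. The Ajuba window, chr14:54577662-54577911 on the minus strand, holds 2 matches, at -186 and -164. Both Lats2 windows, chr14:57746124-57746373 and chr14:57734419-57734668 on the minus strand, hold none. They lie inside the span of Lats2 in GENCODE M21, chr14:57689662-57758388, so the bases upstream of that span were not searched. The Ankrd1 and Amotl2 windows also lie inside the spans of these genes in that annotation. Of all 32851 RefSeq promoter windows of this length, 12.6% hold the TEAD letters. Neither TGANTCA, the AP-1 element (in 6.75% of windows), nor a CArG box (1.47%) was present in the windows of these genes. The matches are letters in a window and were not measured as binding sites. Ccn2, Ccn3, Ccn4 and Ccn5 had no entry. In GENCODE M21 (GRCm38) these genes span chr10:24595442-24598683, chr15:54745702-54754039, chr15:66891320-66923201 and chr2:163820861-163833146, all on the plus strand, and the deposited counts are of their annotated transcripts.

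Library totals lay between 22168953 and 29421447 counts, and all 9 genes passed the filter on low counts. A further CCN gene, Ccn6, had 1 count in 1 control library and 0 in the other 16 and was not tested. Levels are in CPM, the counts of a gene relative to its library total after TMM scaling. Unless another fit is named, a gene is called where the edgeR quasi-likelihood test with terms for group and line, adjusted over 13923 genes, gave a p under 0.05. All 10 fibroblast markers were detected, with summed CPM between 5450 and 6980 in control, 9910 and 20400 in TGF-beta, 5610 and 6750 in CM, and 4070 and 6780 in CM plus neratinib. The 12 epithelial markers summed to 16.9 to 27.8 CPM in control and 15.9 to 21.6 in TGF-beta, and Cldn7 and Esrp1 held 3 counts or fewer in every library of both groups. In the conditioned media they summed to 146 to 324 CPM in the 4 T6 libraries and 9.96 to 52.5 in the 4 T8 libraries. Macrophage markers summed to 2.22 to 13.8 CPM and endothelial markers to 5.39 to 12.5 CPM, with Ptprc, Adgre1, Itgam and Tyrobp at 3 counts or fewer in every library. Whether these sums have a part in the results was not tested. The 3 libraries labelled PSC4 number 1 stood apart: across genes, after removal of group means, their median correlation with the other PSC4 libraries was -0.559, -0.437 and -0.286, and with the PSC5 libraries 0.335, 0.245 and 0.188 (control, CM, CM plus neratinib). Values by line follow the labels, and no other source for the line of these 3 libraries was used. Results are also given without them where a call changed. Nothing in the labels says that libraries came from separate cultures beyond their passages, so p-values measure the spread between these libraries.

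TGF-beta moved the CCN genes in opposite directions. Ccn2 rose 2.33 and Ccn4 rose 1.32 on the log2 scale, Ccn3 fell by 3.51, and Ccn1 and Ccn5 were not called. Among the YAP targets outside the CCN family, Amotl2 and Lats2, which both restrain YAP, fell, and Ankrd1 and Ajuba were not called. In all, 5 of 9 genes were called, 2 higher and 3 lower, where 40.2% of all tested genes were called (19.7% higher, 20.5% lower), and the groups did not overlap for these 5 genes (32.7% of all genes). The median log2 fold change was -0.41 over the 9 genes and -0.02 over all genes tested.

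Ccn2, the fibrosis-associated member, read 59.4, 55.5, 68.2, 40.1 and 42.6 CPM in control (PSC4 1, 2, 3, then PSC5 1, 2) and 243, 328, 299 and 190 CPM in TGF-beta (PSC4 2, 3, then PSC5 1, 2). The lowest TGF-beta library lay far above the highest control library. The log2 fold change was 2.33 (SE 0.30, adjusted p = 3.18e-05, edgeR), and the ratio of means was 2.23 in PSC4 and 2.56 in PSC5 on the log2 scale. In bulk RNA, a change in the number of cells with a transcript and a change in the RNA per cell cannot be told apart.

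Ccn4, also named Wisp1 for its induction by Wnt signals, read 228, 169, 185, 202 and 174 CPM in control and 412, 467, 529 and 524 CPM in TGF-beta. The groups did not overlap, and the log2 fold change was 1.32 (SE 0.16, adjusted p = 1.49e-05, edgeR). It was 1.18 in PSC4 and 1.48 in PSC5.

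Ccn3 (Nov), a CCN protein often described as opposing CCN2, went the other way. Its control libraries read 512, 344, 374, 446 and 345 CPM, and its TGF-beta libraries 32.5, 32.4, 69.0 and 7.73 CPM. No library overlapped, and the lowest, PSC5 2, was well under the other 3. The log2 fold change was -3.51 (SE 0.47, adjusted p = 3.65e-05, edgeR), with -3.66 in PSC4 and -3.37 in PSC5. Without the highest TGF-beta library, PSC5 1, it was -4.15.

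Ccn5 (Wisp2), which lacks the C-terminal domain of the other CCN proteins, read 29.1, 53.8, 60.4, 44.1 and 27.1 CPM in control and 31.1, 25.9, 15.8 and 1.91 CPM in TGF-beta. The groups overlapped, since 2 control libraries were under the highest TGF-beta library. The log2 fold change was -1.25 (SE 0.62, adjusted p = 0.124, edgeR). TGF-beta was lower in 4 of 4 libraries matched by line and number (60.2% of all genes had 1 direction in every match), and with line and number as a block the change was -1.63 (adjusted p = 0.0119, edgeR). It was -1.44 (adjusted p = 0.0228) without the libraries labelled PSC4 number 1.

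Ccn1 (Cyr61), the integrin ligand whose promoter holds a TEAD match, read 245, 262, 286, 223 and 337 CPM in control and 156, 235, 324 and 200 CPM in TGF-beta. The groups overlapped, with PSC5 1 and PSC4 3 inside the control range and the other 2 under it. The log2 fold change was -0.27 (SE 0.17, adjusted p = 0.222, edgeR). Without TGF-beta PSC5 1 it was -0.45 (adjusted p = 0.0321). Ccn1 and Ccn2 are both widely used as readouts of YAP activity, and of the pair only Ccn2 was called with TGF-beta in all 17 libraries.

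**Figure D1:**
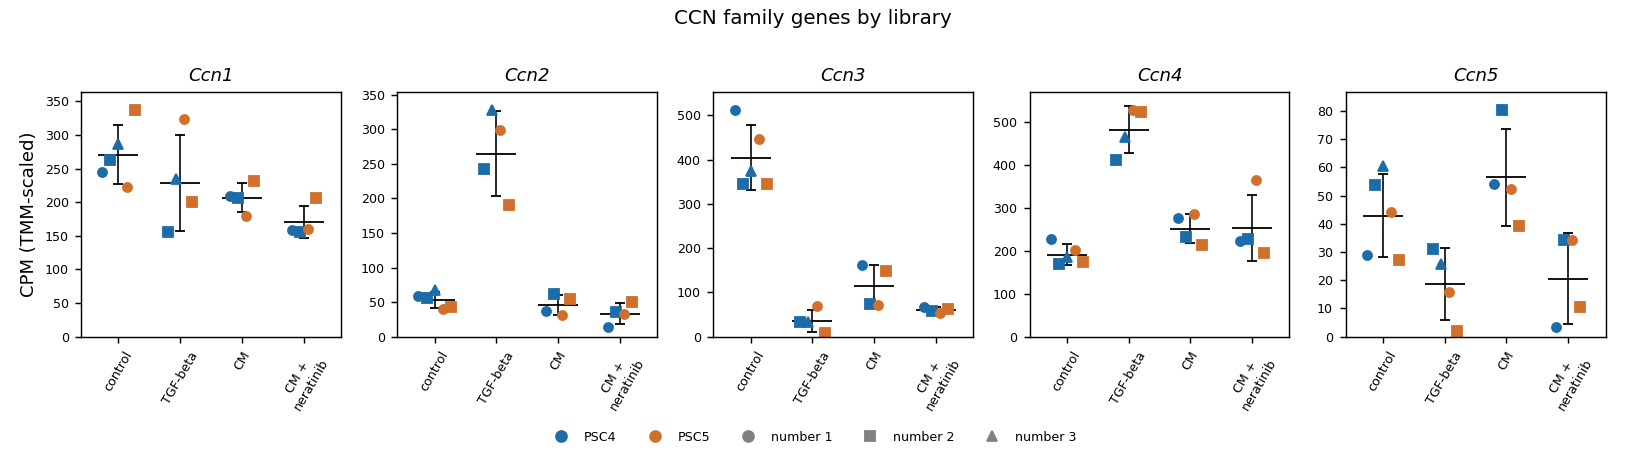
CPM of the 5 CCN genes (y axis, 1 panel per gene) in each library by group (x axis). Colour gives the line, shape the replicate number, and the horizontal line and bar the mean ± SD; the TGF-beta libraries stand above all control libraries for Ccn2 and Ccn4 and below them for Ccn3.

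Amotl2, an angiomotin family protein that binds YAP and keeps it out of the nucleus, read 247, 228, 239, 229 and 234 CPM in control and 88.2, 91.6, 138 and 78.6 CPM in TGF-beta. The control libraries were close together and all above the TGF-beta libraries. The log2 fold change was -1.27 (SE 0.15, adjusted p = 1.59e-05, edgeR), with -1.40 in PSC4 and -1.10 in PSC5.

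Lats2, the kinase that phosphorylates YAP and TAZ, held close values within each group. It read 95.3, 87.7, 90.7, 87.6 and 87.1 CPM in control and 64.7, 63.6, 62.3 and 56.0 CPM in TGF-beta. No library overlapped. Its log2 fold change was -0.54 (SE 0.05, adjusted p = 3.03e-06, edgeR), with -0.51 in PSC4 and -0.56 in PSC5.

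Ankrd1, a muscle and stretch-responsive ankyrin-repeat protein, read 209, 132, 118, 178 and 204 CPM in control and 84.6, 101, 215 and 133 CPM in TGF-beta. The groups overlapped widely (log2 fold change -0.41, SE 0.27, adjusted p = 0.259, edgeR). Ajuba, a LIM-domain scaffold that binds the LATS kinases, read 59.0, 46.1, 41.1, 53.8 and 53.5 CPM in control and 46.5, 46.8, 66.2 and 65.0 CPM in TGF-beta. Its TGF-beta libraries were high in PSC5 and within the control range in PSC4 (log2 fold change 0.12, SE 0.13, adjusted p = 0.511, edgeR). Ajuba was higher in 4 of 4 matched libraries, by 0.01 to 0.30 on the log2 scale, and with the block it was called (0.20, adjusted p = 0.0459, edgeR). Without the libraries labelled PSC4 number 1, 6 of 9 genes were called, Ccn5 being the addition, where 49.4% of all genes were called.

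**Figure D2:**
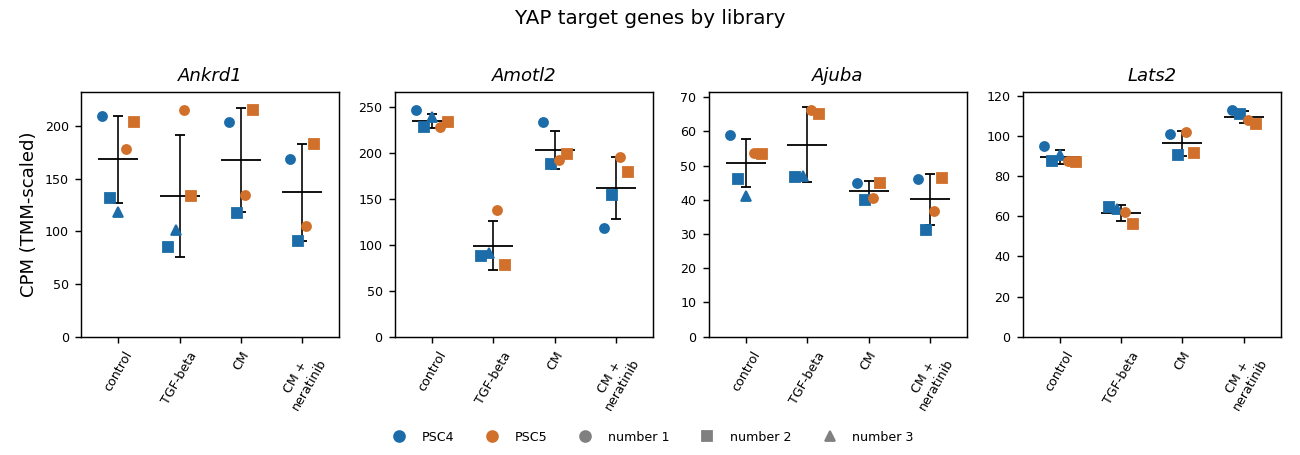
CPM of the 4 YAP target genes outside the CCN family (y axis, 1 panel per gene) in each library by group (x axis), with colour for line, shape for number and the mean ± SD. Amotl2 and Lats2 are lower in every TGF-beta library than in every control library, and Ankrd1 overlaps in all groups.

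In tumour organoid CM, Ccn3 was the only one of the 9 genes called against control in the fit with group and line: it fell by 1.82 on the log2 scale. Ccn2, called with TGF-beta, was -0.19 here and not called. This is 1 of 9 genes, where 14.2% of all tested genes were called (7.05% higher, 7.14% lower), and groups without overlap were found for 1 of 9 genes against 19.8% of all. This comparison shares its control libraries with the TGF-beta comparison.

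Ccn3 read 163, 74.1, 72.3 and 148 CPM in CM (PSC4 1, 2, then PSC5 1, 2), against 344 to 512 CPM in control. The groups did not overlap, and the log2 fold change was -1.82 (SE 0.43, adjusted p = 0.0129, edgeR), with -1.79 in PSC4 and -1.85 in PSC5. Without CM PSC5 1 the call was lost (-1.65, adjusted p = 0.0538). The 2 higher values came from PSC4 1 and PSC5 2, which carried different medium codes.

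Ccn1 read 209, 206, 180 and 232 CPM in CM and was lower in 4 of 4 matched libraries (log2 fold change -0.40, SE 0.17, adjusted p = 0.125, edgeR). Ccn2 read 37.1, 61.3, 31.4 and 54.5 CPM, 2 of them inside the control range and 2 under it (-0.19, SE 0.30, adjusted p = 0.719). Ccn4 read 277, 232, 286 and 214 CPM (0.38, SE 0.16, adjusted p = 0.118) and was higher in 4 of 4 matched libraries. It was called with the block (0.38, adjusted p = 0.0433, edgeR). Ccn5 read 54.0, 80.3, 52.3 and 39.1 CPM and was also higher in 4 of 4 matched libraries, at 0.44 (SE 0.59, adjusted p = 0.665).

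Amotl2, of the YAP targets outside the CCN family, read 234, 188, 193 and 199 CPM in CM. It was lower than the matched control in 4 of 4 (log2 fold change -0.22, SE 0.15, adjusted p = 0.349, edgeR). Lats2 read 101, 90.7, 102 and 91.6 CPM, higher in 4 of 4 (0.11, SE 0.05, adjusted p = 0.185). Ajuba read 45.0, 39.8, 40.4 and 44.9 CPM, lower in 4 of 4 (-0.27, SE 0.13, adjusted p = 0.196), and was called with the block (-0.32, adjusted p = 0.0123, edgeR). Ankrd1 read 204, 117, 134 and 215 CPM, which spans the control range (-0.03, SE 0.27, adjusted p = 0.954). Of all tested genes, 53.0% had 1 direction in all 4 matched libraries.

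With neratinib added to CM, 5 of the 9 genes differed from control, 1 higher and 4 lower, where 43.1% of all tested genes were called (22.2% higher, 20.9% lower). Ccn1, Ccn3, Amotl2 and Ajuba fell and Lats2 rose. Groups without overlap were found for 4 of the 9, all but Ajuba among these 5, against 29.4% of all genes. The median log2 fold change was -0.56 over the 9 genes and 0.005 over all genes. The control libraries are those of the comparisons above.

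Ccn1 read 159, 156, 160 and 206 CPM in CM plus neratinib, below every control library (223 to 337 CPM). The log2 fold change was -0.69 (SE 0.17, adjusted p = 0.00459, edgeR), with -0.75 in PSC4 and -0.61 in PSC5. Ccn3 read 67.5, 57.2, 54.2 and 61.9 CPM, a tight group far under control (-2.75, SE 0.45, adjusted p = 0.000291, edgeR). Its ratio of means was -2.72 in PSC4 and -2.77 in PSC5.

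Amotl2 read 118, 154, 196 and 179 CPM, all under the control range of 228 to 247 CPM and lowest in PSC4 1 (log2 fold change -0.56, SE 0.15, adjusted p = 0.00773, edgeR). Lats2 read 113, 111, 108 and 106 CPM, all above every control library (0.29, SE 0.05, adjusted p = 0.000637, edgeR), and its ratio of means was 0.29 in each line. Lats2 was thus lower with TGF-beta and higher with CM plus neratinib, each against the same controls.

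Ajuba read 46.2, 31.2, 36.7 and 46.3 CPM and overlapped the control libraries (log2 fold change -0.36, SE 0.13, adjusted p = 0.0412, edgeR). That call was lost in 8 of 18 alternatives, 6 of which left out a single library. Without CM plus neratinib PSC4 2 it was -0.27 (adjusted p = 0.135) and without PSC5 1 of that group -0.29 (adjusted p = 0.112). Without control PSC4 1, PSC4 2, PSC5 1 and PSC5 2, in turn, the adjusted p was 0.0966, 0.0523, 0.0641 and 0.0596.

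Ccn2 read 14.0, 35.5, 32.3 and 50.6 CPM, with PSC4 1 low and PSC5 2 inside the control range (log2 fold change -0.66, SE 0.31, adjusted p = 0.102, edgeR). Without CM plus neratinib PSC5 2 it was -0.95 (adjusted p = 0.0257). Ccn4 read 223, 228, 366 and 196 CPM, with PSC5 1 high (0.38, SE 0.16, adjusted p = 0.0616, edgeR). Ccn4 was called with the block (0.37, adjusted p = 0.0248) and without the libraries labelled PSC4 number 1 (0.49, adjusted p = 0.0355). It was also called without CM plus neratinib PSC5 2 (0.50, adjusted p = 0.0189) and without control PSC4 1 (0.46, adjusted p = 0.0296), but without CM plus neratinib PSC5 1 it was 0.17 (adjusted p = 0.27).

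Ccn5 read 3.32, 34.4, 34.1 and 10.4 CPM, the widest spread of the 9 genes in this group relative to the mean (log2 fold change -0.94, SE 0.62, adjusted p = 0.232, edgeR). Ankrd1 read 169, 90.5, 105 and 183 CPM and was lower than its matched control in 4 of 4, with log2 ratios from -0.76 to -0.16 (fitted -0.32, SE 0.27, adjusted p = 0.355, edgeR). Of all tested genes, 57.9% had 1 direction in these 4 matches.

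Between CM with and without neratinib, 1 of the 9 genes was called: Lats2 rose by 0.18 (SE 0.06, adjusted p = 0.0333, edgeR), where 20.5% of all tested genes were called (10.8% higher, 9.63% lower). Its 4 libraries with neratinib (106 to 113 CPM) stood above the 4 without (90.7 to 102 CPM). Groups also did not overlap for Ccn3 (-0.92, SE 0.43, adjusted p = 0.148) and Ccn5 (-1.38, SE 0.64, adjusted p = 0.143), which makes 3 of 9 against 18.7% of all genes. The Lats2 call was lost without CM PSC4 2 (0.14, adjusted p = 0.115), PSC4 1 (0.0585) or PSC5 2 (0.0987), and without CM plus neratinib PSC4 2 (0.0544), PSC4 1 (0.0661) or PSC5 2 (0.0646). It was also lost without the libraries labelled PSC4 number 1 (adjusted p = 0.0627).

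With line and number as a block, Ccn5 was called besides Lats2. Ccn5 was lower with neratinib in 4 of 4 libraries matched by line and number, with log2 ratios from -4.02 to -0.62 (-1.76 with the block, adjusted p = 0.0162, edgeR). Without CM plus neratinib PSC5 1 it was -1.98 (adjusted p = 0.046), without PSC4 1 of that group -0.98 (adjusted p = 0.237), and without all libraries labelled PSC4 number 1 -1.10 (adjusted p = 0.187). Ankrd1 was lower in 4 of 4 pairs (-0.37 to -0.23), as were Ccn1 (-0.41 to -0.17) and Ccn3 (-1.27 to -0.37), and none of these was called with the block. Of all tested genes, 49.0% had 1 direction in all 4 pairs. Ccn2 had a ratio of means of -0.99 in PSC4 and -0.05 in PSC5. Amotl2 (-0.34, SE 0.16, adjusted p = 0.137), Ajuba (-0.09, adjusted p = 0.696) and Ccn4, at 253 CPM with and 252 CPM without neratinib (adjusted p = 0.998), were not called.

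**Figure D3:**
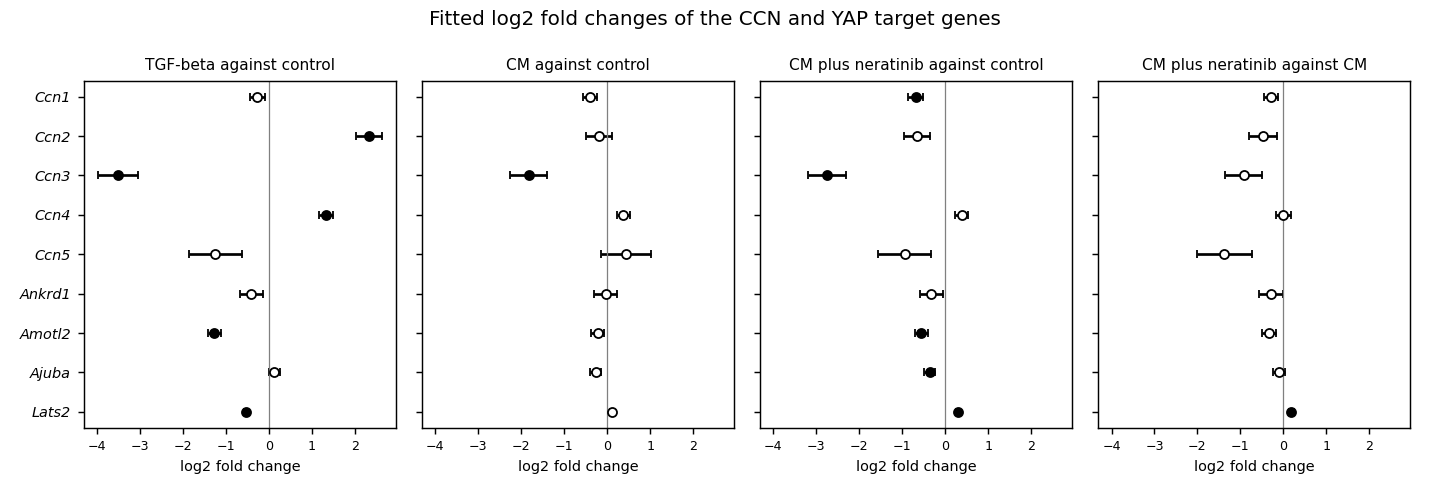
Fitted log2 fold change (x axis) with its standard error for the 9 genes in 4 comparisons, filled where called and open where not. Ccn3 lies left of 0 in all 4 panels, whereas Ccn2 and Ccn4 are filled to the right only with TGF-beta and Lats2 changes side between TGF-beta and CM plus neratinib.

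Set directly against TGF-beta, CM differed in 6 of the 9 genes (3 higher, 3 lower), where 35.3% of all tested genes were called (17.8% higher, 17.5% lower). Groups did not overlap for 7 of 9 genes, against 31.5% of all. Ccn2 was lower in CM by 2.52 (SE 0.33, adjusted p = 3.79e-05, edgeR) and Ccn4 by 0.93 (SE 0.17, adjusted p = 0.00053). Ccn3 was higher by 1.69 (SE 0.44, adjusted p = 0.0081), Amotl2 by 1.05 (SE 0.16, adjusted p = 0.00013) and Lats2 by 0.65 (SE 0.06, adjusted p = 8.53e-07). Without TGF-beta PSC5 1 the Ccn3 difference was 2.36. Ccn5, at 1.69 (adjusted p = 0.0562), was called with the block (2.28, adjusted p = 0.00367) and without the libraries labelled PSC4 number 1 (1.89, adjusted p = 0.00985).

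Ajuba was lower in CM than in TGF-beta by 0.38 (SE 0.14, adjusted p = 0.0421, edgeR), with no overlap. The call was lost without CM PSC4 2 (adjusted p = 0.0763), PSC5 2 (0.0855) or PSC5 1 (0.119), and without TGF-beta PSC5 1 (0.112) or PSC5 2 (0.106). In all, 6 of 17 alternatives lost it, these among them. Ccn1 (-0.13, adjusted p = 0.593) and Ankrd1 (0.38, adjusted p = 0.333) were not called.

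Against TGF-beta, CM plus neratinib differed in 5 genes (2 higher, 3 lower), where 44.0% of all tested genes were called (23.1% higher, 20.9% lower). Groups did not overlap for 4 of 9 genes, against 30.0% of all. Ccn2 was lower by 2.99 (SE 0.34, adjusted p = 8.19e-06, edgeR), Ccn4 by 0.93 (SE 0.17, adjusted p = 0.000417) and Ajuba by 0.47 (SE 0.14, adjusted p = 0.0123). Amotl2 was higher by 0.71 (SE 0.16, adjusted p = 0.00214) and Lats2 by 0.83 (SE 0.06, adjusted p = 6.46e-08). Ccn3 was not called (0.77, SE 0.44, adjusted p = 0.171), but was at 1.44 (adjusted p = 0.0113) without TGF-beta PSC5 1. Ccn1 (-0.42, adjusted p = 0.0628) was called without TGF-beta PSC4 2 (-0.56, adjusted p = 0.0167) or PSC5 2 (-0.50, adjusted p = 0.0404), and was at -0.23 (adjusted p = 0.267) without TGF-beta PSC5 1. Ccn5 (0.30, adjusted p = 0.735) and Ankrd1 (0.09, adjusted p = 0.831) were not called.

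For each gene the 4 groups were also ordered by mean CPM, and the calls above were read between neighbours. The share of all tested genes with a called step was not computed. Ccn2 stood highest in TGF-beta (265 ± 61.2, SD, n = 4), above control (53.2 ± 11.7, n = 5), CM (46.1 ± 14.1, n = 4) and CM plus neratinib (33.1 ± 15.0, n = 4), and only the first step was called. Ccn3 stood highest in control (404 ± 73.1), above CM (114 ± 47.7), CM plus neratinib (60.2 ± 5.81) and TGF-beta (35.4 ± 25.2), again with only the first step called. For Ccn4 only the step from TGF-beta (483 ± 54.7) to CM plus neratinib (253 ± 76.5) was called.

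The order of Amotl2 was control (236 ± 7.76), CM (203 ± 20.6), CM plus neratinib (162 ± 33.8) and TGF-beta (99.1 ± 26.6), with only the last step called. Lats2 ran from CM plus neratinib (109 ± 3.14) through CM (96.4 ± 6.01) and control (89.7 ± 3.44) to TGF-beta (61.7 ± 3.91), with the first and last steps called. No step between neighbours was called for Ccn1, Ccn5, Ankrd1 or Ajuba, and Ccn5 and Ankrd1 were called in none of the 6 comparisons when fitted with group and line. Ankrd1 held 168 ± 41.6 CPM in control and 133 ± 58.0 in TGF-beta, so its spread within a group was as wide as its differences between groups.

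Divided by merged exon length (GENCODE M21), the 5 CCN genes can be set against each other. In control, Ccn3 made up 40.2% and Ccn1 38.3% of their summed CPM per kb, with Ccn4 at 9.82%, Ccn5 at 6.42% and Ccn2 at 5.29% (means of 5 libraries). Within libraries, Ccn1 led in 3 of 5 and Ccn3 in 2. With TGF-beta the shares were Ccn1 35.5%, Ccn2 29.4%, Ccn4 28.2%, Ccn3 3.69% and Ccn5 3.14%. Per length, then, Ccn1 led in 3 of 4 TGF-beta libraries and Ccn2 in 1, although Ccn2 had the largest rise of the 5.

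In CM, Ccn1 led in 4 of 4 libraries with a mean share of 44.0%, followed by Ccn4 (19.7%), Ccn3 (16.8%), Ccn5 (12.7%) and Ccn2 (6.89%). With neratinib, Ccn1 again led in 4 of 4 with 49.0%, followed by Ccn4 (26.2%), Ccn3 (12.3%), Ccn2 (6.55%) and Ccn5 (5.98%). The summed level was 350 ± 19.1 CPM per kb in control (SD, n = 5), 315 ± 62.9 in TGF-beta, 233 ± 20.9 in CM and 173 ± 19.0 in CM plus neratinib (n = 4 each). The CM range of 204 to 251 and the neratinib range of 149 to 193 both lay under the control range of 327 to 377, and these sums were not tested.

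**Figure D4:**
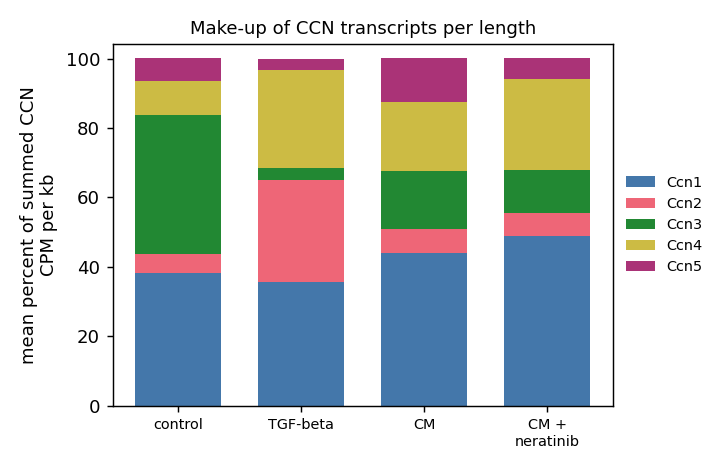
Mean percent of the summed CPM per kb held by each of the 5 CCN genes (y axis) in each group (x axis), as stacked bars. Ccn3 holds 40.2% in control and 3.69% with TGF-beta, where Ccn2 and Ccn4 hold 29.4% and 28.2%.

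No difference in response between the lines was called. The edgeR interaction tests of line with TGF-beta, CM and CM plus neratinib called 0 of the 9 genes, and 0.0% of all tested genes, and DESeq2 called 0 of the 9. At an unadjusted p under 0.05 the 3 tests gave 0, 0 and 1 of the 9 genes (4.32%, 0.309% and 1.87% of all genes). The 1 was Ccn2, whose response to CM plus neratinib was 1.30 higher in PSC5 (SE 0.57, unadjusted p = 0.0413). That difference was 0.80 (unadjusted p = 0.148) without the libraries labelled PSC4 number 1 and 0.24 (unadjusted p = 0.722) with them counted as PSC5. A p that misses the threshold does not show that the lines respond alike.

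Between the medium codes, edgeR and DESeq2 again called 0 of the 9 genes (0.0% of all genes by edgeR), with 2 of 9 at an unadjusted p under 0.05 (6.51% of all genes). Ccn2 was higher with T6 by 1.02 (SE 0.34, adjusted p = 0.683, edgeR). In CM its T6 libraries read 61.3 and 54.5 CPM and its T8 libraries 37.1 and 31.4. In CM plus neratinib its T6 libraries read 35.5 and 50.6 CPM and its T8 libraries 14.0 and 32.3. Its control libraries read 59.4 and 55.5 CPM in PSC4 and 40.1 and 42.6 CPM in PSC5 (numbers 1 and 2). The test sets each library against the others of its line and number, so it can differ from the raw order. For Ankrd1 it gave 0.58 (SE 0.23, adjusted p = 0.727), although the T6 libraries read 117, 215, 90.5 and 183 CPM and the T8 libraries 204, 134, 169 and 105 CPM, which overlap with no common direction. The control libraries of the same line differed by number too, at 209 and 132 CPM in PSC4 and 178 and 204 CPM in PSC5 (numbers 1 and 2). The T6 libraries are also those with the higher epithelial marker sums, whose part in these values was not tested.

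The 17 further YAP and TAZ targets, listed from general knowledge with earlier results of these data known, did not move as 1 block. TGF-beta raised 6 and lowered 7, where 40.2% of all genes were called, with a median of -0.05 against -0.02 over all genes. Nt5e, the surface enzyme CD73, rose by 3.31 (SE 0.45, adjusted p = 4.15e-05, edgeR), and Gadd45a, a DNA damage response gene, by 2.73 (SE 0.19, adjusted p = 8.88e-08). Tgfb2, which encodes a TGF-beta ligand, rose by 1.25. Igfbp3, an IGF-binding protein, fell by 3.25 (SE 0.64, adjusted p = 0.000981; -3.89 without TGF-beta PSC5 1). F3, tissue factor of blood clotting, changed by -2.39 and Crim1 by -1.26.

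In CM 2 of the 17 were higher (Igfbp3 2.43, Gadd45a 0.75) and 2 lower (Ptpn14 -0.57, Asap1 -0.42), where 14.2% of all genes were called, with a median of -0.27. In CM plus neratinib 1 was higher (Gadd45a 1.33) and 8 lower, among them F3 (-1.01), the phosphatase gene Ptpn14 (-0.86) and Rbms3 (-0.77), where 43.1% of all genes were called, with a median of -0.45 against 0.005 over all genes. Against CM alone, neratinib left 3 lower (Nuak2 -0.42, Axl -0.38, Arhgef17 -0.31) and none higher by edgeR, where 20.5% of all genes were called. Igfbp3 thus fell with TGF-beta and rose in CM, each against the same controls.

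**Figure D5:**
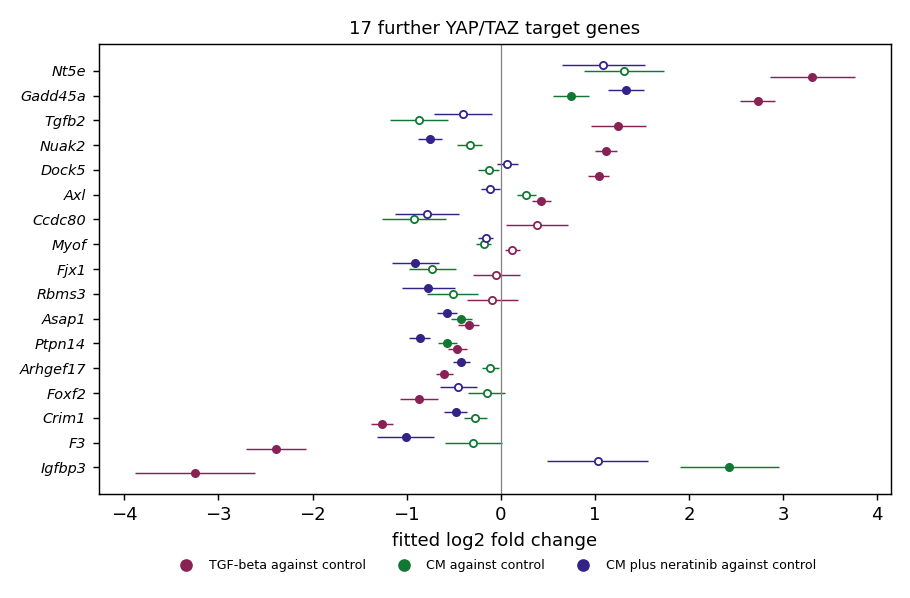
Fitted log2 fold change (x axis) with its standard error for 17 further YAP and TAZ targets in 3 comparisons against the same control libraries, filled where called and open where not. TGF-beta has 6 filled points on the right and 7 on the left, and with CM plus neratinib 1 is called higher and 8 lower.

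The transcripts of the 2 co-activators moved in opposite directions with TGF-beta. Yap1 was 200 ± 9.89 CPM in control (SD, n = 5) and 171 ± 5.26 with TGF-beta (n = 4; log2 fold change -0.23, SE 0.06, adjusted p = 0.00435, edgeR). Wwtr1, which encodes TAZ, was 185 ± 10.5 and 240 ± 14.9 CPM (0.37, SE 0.08, adjusted p = 0.00152). Tead2 rose by 0.31, and Tead1, Tead3 and Tead4 were not called. In CM none of Yap1, Wwtr1 and Tead1 to Tead4 was called by edgeR. In CM plus neratinib Yap1 fell by 0.16 (adjusted p = 0.0258), Tead3 fell by 0.46 (adjusted p = 0.0246) and Tead4, at 7.31 CPM in control with 145 to 240 counts there, rose by 0.59 (adjusted p = 0.0367).

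Of 29 Hippo pathway components, including those 6 genes, TGF-beta raised 6 and lowered 6, against 2 and 5 in CM and 8 and 9 in CM plus neratinib. Over all genes 40.2%, 14.2% and 43.1% were called in these comparisons, so the TGF-beta count of 12 of 29 is near the share of all genes. With TGF-beta Wwc2, Amotl1 and the kinase gene Lats1 rose (0.58, 0.58 and 0.42), whereas Fat4, an atypical cadherin, fell by 1.92, Vgll3 by 1.05 and the kinase gene Stk3 by 0.67. Amotl1 and Lats1 rose where their paralogs Amotl2 and Lats2 fell. Neratinib in CM raised Amotl1 (0.47), Map4k4 (0.31) and Limd1 (0.27) and lowered the cadherin genes Dchs1 (-1.17) and Fat4 (-0.99) and Amot (-0.60).

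Receptors of CCN proteins were tested for 11 of 12 listed genes. With TGF-beta 6 were higher and 3 lower (19.7% and 20.5% of all genes): the integrin genes Itgb3 and Itga5 rose by 3.86 (SE 0.30) and 1.59 and Lrp1 by 1.30, while the proteoglycan gene Sdc4 fell by 1.54, Notch1 by 0.64 and Lrp6 by 0.51. In CM Itgb5 rose by 0.56, and Notch1 and Lrp6 fell by 1.05 and 0.48. Neratinib in CM raised Itga6 (0.85) and Itgb1 (0.18) and lowered Notch1 (-0.98). As a check of the treatment, the TGF-beta response genes Skil (2.33), Col1a1 (2.13), Tgfb1 (2.10) and Smad7 (0.75) rose with TGF-beta, and Tgfbi, Ltbp2 and Postn were not called.

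Over the 17 libraries, the genes nearest to Ccn1, Ccn2, Ccn4 and Ccn5 by Pearson correlation of log2 CPM, among 9772 genes, give a description in which the points share groups and lines. Ccn2 was followed most closely by Zfp827 (r = 0.963), Glis2 (0.95), Csrp2 (0.949), Unc5b (0.949) and 2900026A02Rik (0.949). Ccn4 was nearest to Gorasp2 (0.975), Tmed9 (0.96), Surf4 (0.958), Skil (0.957) and Maco1 (0.957). Ccn5 was nearest to Pdgfra (0.963), Heg1 (0.949), Bmper (0.947), Ctdspl (0.943) and Btd (0.937).

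For Ccn1 the nearest genes were less close: Thsd7a (0.823), Papss1 (0.821), Lbh (0.80), Myl9 (0.797) and Fzd3 (0.795). Among the 9 genes themselves, Ccn3 and Amotl2 went together (r = 0.87), as did Ccn2 and Ccn4 (0.71), whereas Ccn2 and Lats2 ran opposite (-0.92). Ccn4 also ran opposite to Ccn3 (-0.75), Amotl2 (-0.75) and Lats2 (-0.70). Ccn1 was loosely tied to Ankrd1 (0.53) and to Ccn2 (0.30).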

How the data were processed

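The submitters' processing notes name salmon 1.4.0 and the builds GRCm38 and mm10, with no role given, and the authors deposited expected counts per Ensembl gene, 1 table per library; the annotation release is not given in the sources used here. Expected counts were rounded to whole numbers, and no library total moved by more than 307.9. Symbols (35437 of 35896 IDs), gene lengths and positions came from GENCODE M21, and promoters from RefSeq GRCm38.p6.

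Counts were fitted in edgeR 4.0.16 (R 4.3.3) with TMM factors, filterByExpr by group and terms for group and cell line over all 17 libraries, and tested by the quasi-likelihood test with Benjamini-Hochberg adjustment over 13923 genes at 0.05. The steps were also run on simulated counts that had no line effect and no likeness between matched libraries, so that run does not cover these features of the data. CPM are counts relative to TMM-scaled totals. Alternatives were RLE and upper-quartile factors, no filter, DESeq2 1.42.0, a block of line and number, no line term, only the groups compared, each library left out, and the libraries labelled PSC4 number 1 removed or counted with PSC5.

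Numbers go with the passage within a line, per the labels. In all 22 pairs of libraries from different groups with the same line and number, deviations from group means correlated across genes (r between 0.144 and 0.735, median 0.434). Medians were -0.138 for the same line with another number (r between -0.639 and 0.738) and -0.258 for the other line. CM PSC4 2 had r = 0.738 with control PSC4 3 and 0.701 with control PSC4 2, so the number did not single out the pair there. The numbers were taken to pair the libraries for the matched ratios and the block only. The main fit did not use this pairing. With the block, 50.9% of all genes were called with TGF-beta and 23.3% in CM, against 40.2% and 14.2% in the main fit.

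All 9 genes are named in every comparison. From the other lists, up to 3 called genes per direction are named by absolute fold change among those whose higher group averaged at least 10 CPM, with Yap1, Wwtr1 and Tead1 to Tead4 always named. For Ccn1, Ccn2, Ccn4 and Ccn5, the genes named as most alike are the 5 with the highest correlation. The members and lists were chosen with earlier results of these data known. Some genes of these lists are not reported here.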

Additional observations from a re-analysis of the deposited data

Results flagged for a closer look

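Of 36 sets of libraries tested for a library far from the others (9 genes in 4 groups), 1 was marked, where chance marks about 1 in 20. Ccn1 in CM plus neratinib PSC5 2 stood at 206 CPM, against 156 to 160 CPM in the other 3 libraries of its group.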

How the results depend on the processing

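Over 54 gene comparisons and 945 alternative values, 870 kept their direction and side of the threshold, 30 gained a call, 25 lost one and 20 changed sign. For Ccn4, neratinib against CM was 0.01 without the line term, 0.11 without the libraries labelled PSC4 number 1 and 0.01 with those counted as PSC5. It ran from -0.22 to 0.12 with 1 library left out. For Ankrd1, CM plus neratinib against TGF-beta was -0.18 with the replicate block, -0.16 without the libraries labelled PSC4 number 1, -0.11 with those counted as PSC5, and -0.13 to 0.34 with 1 library left out. Leaving out 1 library also turned Ankrd1 in CM against control (-0.25 to 0.12), Ccn1 in CM against TGF-beta (-0.27 to 0.05) and Ccn5 in CM plus neratinib against TGF-beta (-0.25 to 0.74). None of these values was called in either direction.

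The number of the 9 genes called in CM against control, 1, became 3 with the replicate block and 2 with only the groups compared or with PSC4 number 1 counted as PSC5, and 0 to 1 with 1 library left out. The share of all genes called, 14.2%, was 23.3%, 20.6% and 21.4% in the first 3 of these. For neratinib against CM it was 1, and became 2 with the replicate block or with PSC4 number 1 counted as PSC5, 0 without the filter, with only the groups compared or without PSC4 number 1, and 0 to 2 with 1 library left out. The replicate block changed the calls given beside the results and no other call. The share in CM against control was also 6.93% without the filter, 5.68% without CM PSC5 1, 9.01% without CM PSC4 2, 8.68% without control PSC5 1 and 8.80% without control PSC5 2. In neratinib against CM the share was 20.5%, but 32.8% with the block, 29.3% with PSC4 number 1 counted as PSC5, 9.62% without the filter, 4.54% with only the groups compared, 12.6% without CM PSC4 1 and 12.4% without CM plus neratinib PSC5 2. Without the filter, which adds genes of few counts to those tested, the TGF-beta share was 22.7% in place of 40.2%. Ccn3 in CM against TGF-beta lost its call with only the groups compared (1.70, adjusted p = 0.0527, edgeR). Among named list genes, calls were lost most often in neratinib against CM: Itgb1 in 11, Nuak2 in 8, Arhgef17 and Dchs1 in 7 each, Fat4 in 6 and Axl in 5 of 17 alternatives. Itgb5 in CM lost its call in 9, and Rbms3 and Tead4 in CM plus neratinib in 7 each, of 18. With upper-quartile factors, 37.5% of all calls in CM against control were higher (49.7% with TMM), and 41.1% in CM plus neratinib against control (51.4%). The cause of these shifts was not tested. With 4 or 5 libraries a group, differences the size of those of Ankrd1 lie within the spread.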
